A study of Mus musculus with 1 sample.

Results

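The genes described here were 46 genes of the cell division cycle, taken by their symbols from 23282 rows of the expression table and grouped by the phase in which their products act, with 9 genes of G1, 15 of DNA replication and 22 of mitosis. Each symbol matched 1 row. The table came from 1 RNA-seq library of mixed glia grown from the ventral midbrain (VM) of outbred ICR (CD-1) mice at postnatal day 5, with no transgene or deletion named in the labels. The library was the control group of a study of the serum- and glucocorticoid-regulated kinase SGK1, and its column heading named dimethyl sulfoxide (DMSO), a common solvent for inhibitors. The VM tissue was dissociated, grown in medium with serum, and passaged onto poly-D-lysine before use, so the cells were a passaged primary culture and not tissue. Glia treated with the inhibitor were not analysed here. With 1 library there was no comparison between groups, no error between cultures and no test, and each value below describes this library.

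A cell that enters the cycle first builds D-type cyclins, which bind CDK4 and CDK6 and start to phosphorylate the retinoblastoma protein RB. Cyclin E with CDK2 completes this step, the E2F factors are freed from RB, and genes for DNA replication are transcribed. Origins are loaded with the MCM helicase in G1 and fire in S phase, after which cyclin A and cyclin B with CDK1 drive the cell into mitosis. Genes of the last phase are held down in resting cells by the DREAM complex and are switched on later by the MuvB core together with B-MYB and FOXM1. In the postnatal brain, astrocytes, microglia and oligodendrocyte progenitors can divide, whereas neurons do not.

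The values were normalised read counts as the authors gave them, without a statement of the normalisation. Their sum was 27569507, which stands in place of a sequencing depth, since the number of reads behind the values is unknown. Genes were called detected from a value of 10 upward. To compare genes of different length, values were scaled, as the value per 1000000 of the sum divided by the kilobases of annotated exon, and this quantity is called the level below. Among detected genes the median level was 3.72, and the 25.0% of detected genes with the highest levels, called the top class below, began at 11.6. Because annotated exon length depends on which transcripts are used, each ratio of levels was also computed with the longest transcript and with the exons of transcripts paired with RefSeq. Single levels, ranks and counts use all annotated exons unless another length is named, and ranks of neighbouring genes can change with the length.

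Promoters of replication genes are known for sites bound by E2F, and promoters of mitotic genes for the cell cycle genes homology region (CHR), which MuvB contacts, beside CCAAT boxes, which NF-Y binds. Promoter sequences from RefSeq on the GRCm38.p6 build, from 250 bases before to 50 bases after each start, were used for 37 of the 46 genes, in 39 windows. Those not among the 37 were Ccnd1, Ccnd2, Ccne2, Mcm4, Gmnn, Ccna2, Foxm1, Aurkb and Tpx2. The windows were searched on both strands for E2F sites as the word TTCCCGC, the word TTGGCGC, the word TTCGCGC or the word TTGCCGC. CHR was searched as the word TTTGAA or the word TTCGAA, which is its own reverse complement, and the NF-Y box as CCAAT. The stretches printed here from replication and mitotic genes show what most windows of their phase shared. All stretches are given 5′ to 3′ on the strand of the gene, with every match in capitals. A match on the other strand appears as its reverse complement. The first 4 are from genes of DNA replication, and they show E2F words, with CCAAT boxes in the stretches of Mcm6, Mcm5 and Rrm1. Words that overlap run together in capitals.
Mcm6: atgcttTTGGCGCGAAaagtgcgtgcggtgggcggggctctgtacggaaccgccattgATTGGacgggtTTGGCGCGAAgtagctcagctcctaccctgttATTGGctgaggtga
Mcm5: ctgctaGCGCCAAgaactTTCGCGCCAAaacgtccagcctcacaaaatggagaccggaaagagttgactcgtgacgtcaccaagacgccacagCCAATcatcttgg
Pola1: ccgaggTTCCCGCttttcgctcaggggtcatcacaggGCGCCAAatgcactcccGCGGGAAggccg
Rrm1: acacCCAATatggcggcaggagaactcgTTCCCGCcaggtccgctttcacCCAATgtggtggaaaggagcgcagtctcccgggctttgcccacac

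The next 6 stretches are from mitotic genes, and they show CHR words close to CCAAT boxes.
Cdk1: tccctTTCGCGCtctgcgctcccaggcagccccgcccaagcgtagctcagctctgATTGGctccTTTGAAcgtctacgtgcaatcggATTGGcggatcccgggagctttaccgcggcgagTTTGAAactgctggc
Cdc20: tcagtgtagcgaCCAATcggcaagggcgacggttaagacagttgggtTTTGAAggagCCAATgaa
Ube2c: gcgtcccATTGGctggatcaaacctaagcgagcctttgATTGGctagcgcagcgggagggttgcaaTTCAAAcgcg
Top2a: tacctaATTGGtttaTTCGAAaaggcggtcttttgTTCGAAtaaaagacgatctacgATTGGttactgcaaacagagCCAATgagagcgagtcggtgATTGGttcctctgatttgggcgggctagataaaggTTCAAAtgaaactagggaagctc
Kif11: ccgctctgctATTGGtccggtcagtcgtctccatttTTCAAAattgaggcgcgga
Mki67: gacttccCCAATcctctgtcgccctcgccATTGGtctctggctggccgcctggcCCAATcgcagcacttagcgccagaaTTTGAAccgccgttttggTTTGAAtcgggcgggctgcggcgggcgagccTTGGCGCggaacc

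The last is from Cdk2, the single gene with an E2F match among the 6 G1 genes that have a window.
Cdk2: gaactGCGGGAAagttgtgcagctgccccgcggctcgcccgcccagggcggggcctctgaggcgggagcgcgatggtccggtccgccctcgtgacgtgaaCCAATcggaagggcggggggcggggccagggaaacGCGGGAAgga

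The stretches of Cdk1 and Mki67 held an E2F word in addition to CHR and CCAAT. The stretch of Top2a held 4 CCAAT boxes and 3 CHR words. The stretches of the replication genes were, in GRCm38.p6, Mcm6 at chr1:128359706-128359820 on the minus strand, Mcm5 at chr8:75109339-75109444 on the plus strand, Pola1 at chrX:93632265-93632330 on the minus strand and Rrm1 at chr7:102441600-102441694 on the plus strand, upstream of the RefSeq starts. Those of the mitotic genes were Cdk1 at chr10:69352913-69353047 on the minus strand, Cdc20 at chr4:118437344-118437408 on the minus strand, Ube2c at chr2:164769834-164769909 on the plus strand, Top2a at chr11:99024190-99024344 on the minus strand, Kif11 at chr19:37376327-37376381 on the plus strand and Mki67 at chr7:135716434-135716574 on the minus strand, and that of Cdk2 was at chr10:128705052-128705196 on the minus strand.

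The replication promoters differed from the mitotic ones in which word they held. An E2F word was found in 11 of 14 replication windows (78.6%), in 3 of 18 mitotic windows (16.7%) and in 1 of 7 G1 windows (14.3%). The share was 9.57% of 32851 promoters in the RefSeq table and 15.4% of 14764 promoters of detected genes. The 7 G1 windows came from 6 genes. Windows of E2f1, Cdk6, Cdc6 and Mcm7, and 1 window of Ccnd3, lay wholly inside the annotated GENCODE gene. These windows did not cover the outermost annotated start of the gene. The replication windows without an E2F word were those of Mcm2, Pcna and Tyms, and the mitotic windows with a word were those of Ccnb1, Cdk1 and Mki67. A CHR word showed the opposite distribution, with 15 of 18 mitotic windows (83.3%), 2 of 14 replication windows (14.3%) and 0 of 7 G1 windows, against 19.2% of all promoters and 14.1% of promoters of detected genes. The mitotic windows without it were those of Birc5, Ccnb1 and Cenpe, and the replication windows with it were that of Mcm2 and 1 of the windows of Mcm7.

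CCAAT was frequent in both later phases. It was present in 16 of 18 mitotic windows (88.9%) and 10 of 14 replication windows (71.4%), against 2 of 7 G1 windows (28.6%) and 37.4% of all promoters. At least 2 CCAAT boxes were found in 61.1% of mitotic windows, 35.7% of replication windows and 11.7% of all promoters. CHR and CCAAT occurred together in 14 of 18 mitotic windows (77.8%), against 7.52% of all promoters and 5.70% of promoters of detected genes. The median share of G and C was 58.3% in mitotic windows, 59.5% in replication windows and 60.0% in promoters of detected genes, so base composition was similar in these groups, whereas it was 67.0% in G1 windows and 52.7% in all promoters. A match is a description of letters, and no binding was measured here.

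**Figure D1:**
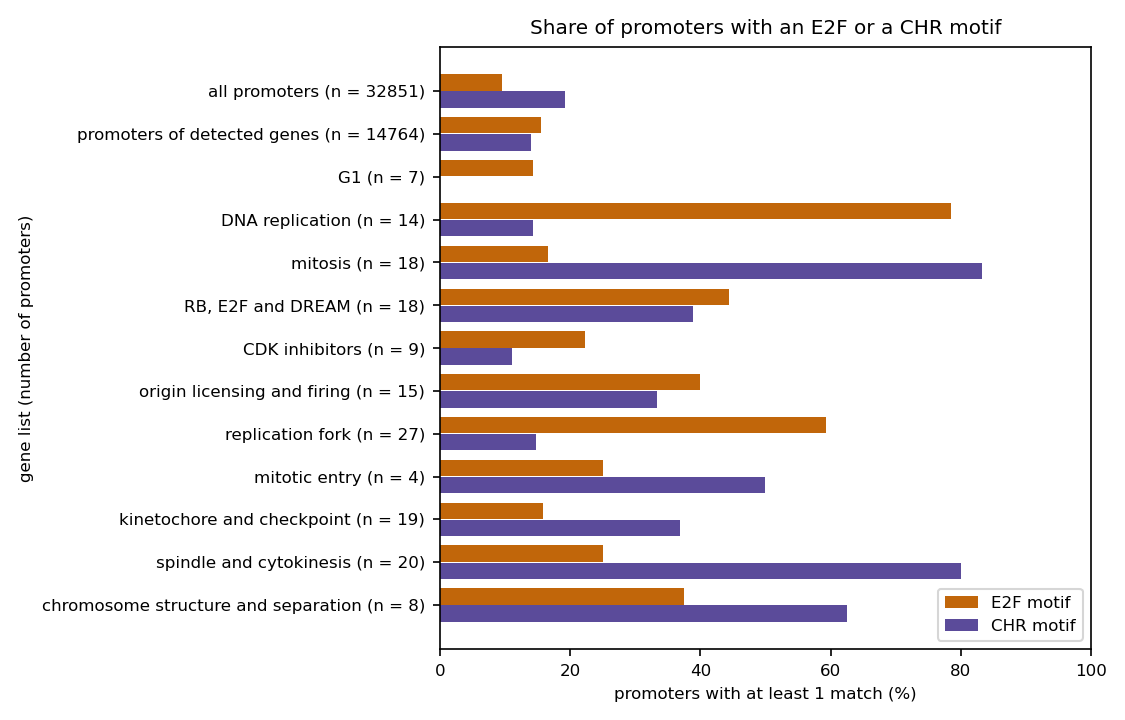
Bars give the share of promoter windows (percent, from 0) with at least 1 E2F word (orange) or CHR word (violet), for all RefSeq promoters, for those of detected genes, for the 3 phases of members and for the 8 pathway lists, each with its number of windows. E2F words are in 78.6% of replication windows and CHR words in 83.3% of mitotic windows, against 9.57% and 19.2% of all promoters.

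The words also differed in place. The 22 CHR matches of mitotic promoters had a median position 18.5 bases before the start, and 14 of them lay from 50 bases before the start onward. All 38 CCAAT boxes of mitotic promoters lay before the start, with a median at position -83. The 25 E2F matches of replication promoters had a median at position -67, ranged from -235 to 43, and included 10 after the start. An E2F match shared bases with a CCAAT box in 3 cases, in Mcm7 and Ccnb1. E2F matches also shared bases with each other in 5 pairs, in Mcm3, Mcm5, Mcm6 and Mcm7, and each match was counted, so the 25 matches are not all separate places. The starts are those of RefSeq, and 14 of the 39 windows have the same first transcribed base as an annotated GENCODE transcript, so positions carry that uncertainty.

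**Figure D2:**
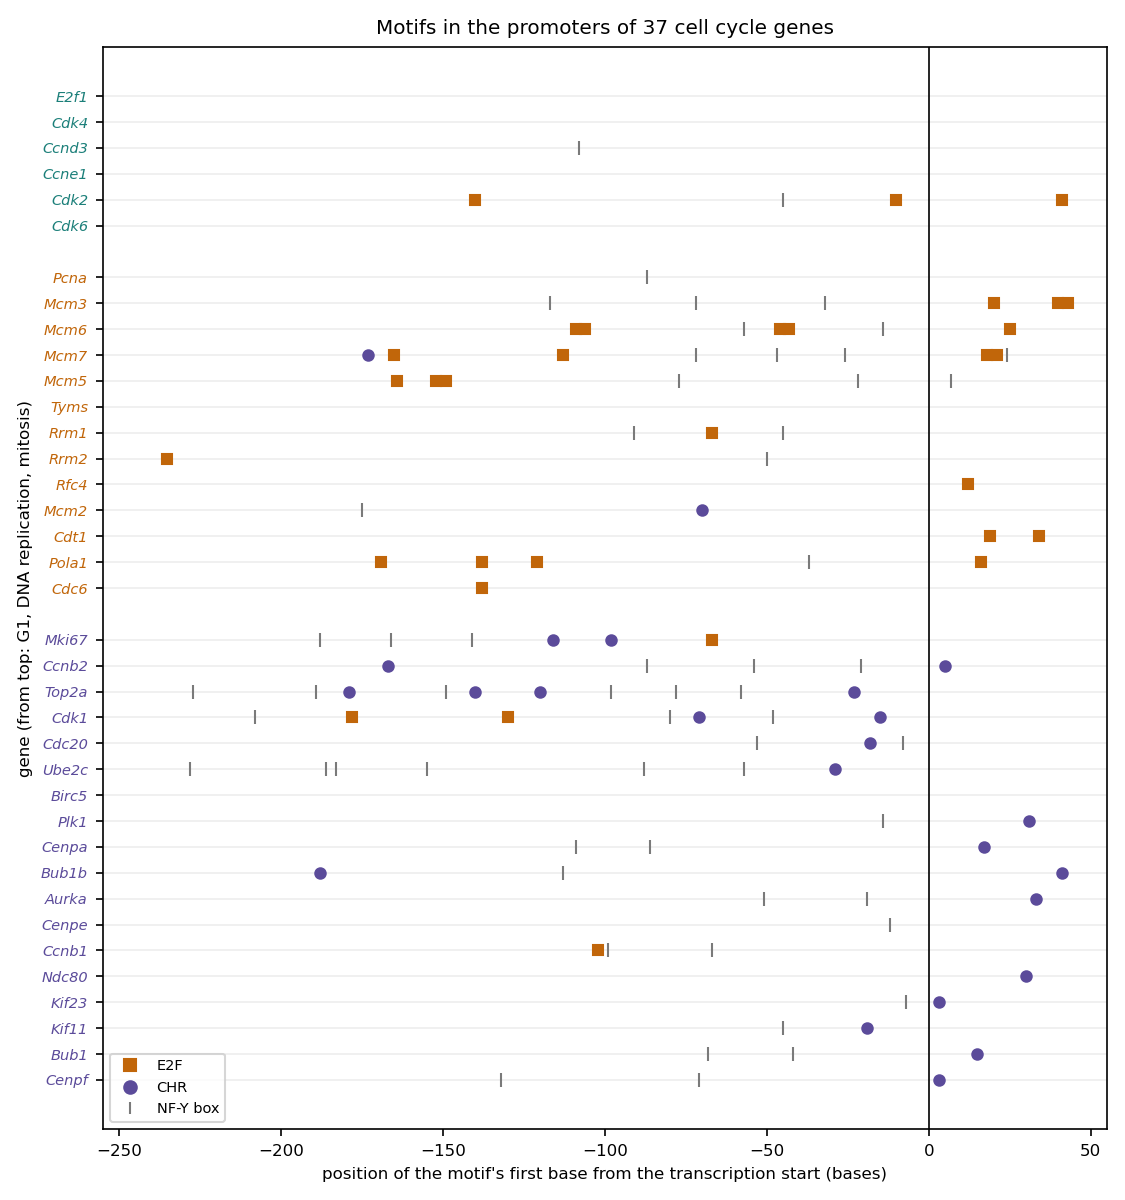
Each row is a gene and each mark the first base of an E2F word (square), a CHR word (circle) or a CCAAT box (tick, NF-Y box), in bases from the RefSeq start, with genes that have more than 1 window drawn on 1 row. In mitotic genes 14 of 22 CHR matches lie from 50 bases before the start onward and all 38 CCAAT boxes lie before the start.

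All 46 genes were detected, against 67.2% of all rows, and 45 had a value of 100 or more. The exception was Cdc6, with a value of 94. Of the 46, 37 had a level above the median of detected genes, where 50.0% of detected genes lie by definition, and 17 were in the top class, against 25.0%. By phase, the level was above the median in 7 of 9 G1 genes, 13 of 15 replication genes and 17 of 22 mitotic genes. The median level of the 46 was 8.62. Their values, not divided by length, summed to 2432 per 1000000 of the table, of which the mitotic genes held 40.8%, the replication genes 35.8% and the G1 genes 23.4%.

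The median level was 9.32 for replication, 7.69 for G1 and 5.96 for mitosis, which placed the phases above 70.8%, 66.7% and 60.7% of detected genes. With a detection minimum of 100 these shares were 62.3%, 57.0% and 49.4%, so the mitotic median then lay slightly below the middle of detected genes. The order of replication and G1 was not stable, since G1 came first without division by length, with medians of the value of 1769 for G1, 1433 for replication and 723 for mitosis. The replication median stayed above the mitotic one in every setting tried, at 1.42 to 1.98 times. The spread within a phase was far larger than the distance between phases. The highest level was 129 times the lowest in G1, 104 times in replication and 14.5 times in mitosis. In this bulk sample the number of cycling cells and the RNA in each of them cannot be told apart, and neither can the cell types that cycled.

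**Figure D3:**
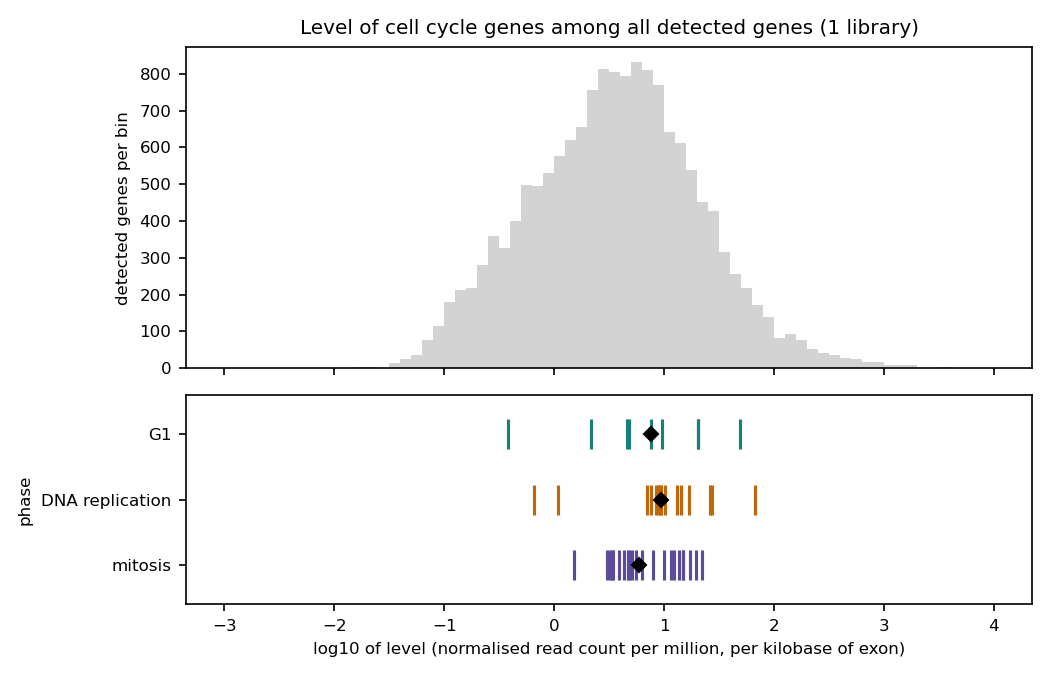
The upper panel is a histogram of detected genes over the level (per 1000000 of the sum, per kilobase of exon) on a log10 axis, and in the lower panel each tick is a member and each diamond the median of its phase. The phase medians of the level are 7.69 for G1, 9.32 for DNA replication and 5.96 for mitosis, against 3.72 for detected genes.

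In G1, Ccnd1 stood highest and Cdk6 lowest under every length choice. With all exons E2f1 and Cdk4 followed Ccnd1, and Cdk2 was next to Cdk6, whereas with RefSeq-paired transcripts Ccnd3 (29.9) exceeded E2f1 (20.3) and Cdk2 (5.60) exceeded Ccne2 (5.26). Ccnd1 (cyclin D1, chromosome 7, 144929931 to 144939925, minus strand, GRCm38) had a value of 6430 and a level of 49.5, which was the highest of the phase and exceeded 93.2% of detected genes. Ccnd2 (cyclin D2) had a value of 2511 and a level of 9.68. Ccnd3 (cyclin D3) had a value of 1861 and a level of 7.69. The level of Ccnd1 was 4.33 to 5.12 times that of Ccnd2 and 2.09 to 6.44 times that of Ccnd3 over the 3 length choices. Ccnd2 and Ccnd3 could not be ordered, since their ratio was 1.26 with all exons and 0.481 with RefSeq-paired transcripts.

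The catalytic partners of the D cyclins were unequal. Cdk4 (chromosome 10, 127063534 to 127067920, plus strand) had a value of 1814 and a level of 20.3. Cdk6 (chromosome 5, 3341485 to 3531008, plus strand) had a value of 148 and a level of 0.384, the lowest level of the 46 genes, above 11.7% of detected genes. The level of Cdk4 was 52.8 to 68.8 times that of Cdk6. The exons of Cdk4 share 19.7% of their length with Tspan31 on the opposite strand, which had a value of 1804, so part of either value could belong to the other gene if strand was ignored in counting. Cdk2, the partner of cyclin E and cyclin A, had a value of 372 and a level of 2.17, and the level of Cdk4 was 5.73 to 9.33 times as high.

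Both E cyclins were near the middle of the detected genes. Ccne1 (cyclin E1) had a value of 337 and a level of 4.59, and Ccne2 (cyclin E2) a value of 464 and a level of 4.82. Their order depended on the length used, with a ratio of Ccne2 to Ccne1 of 0.861 to 1.05. Ccne2 shares 17.4% of its exon length with Ints8 on the opposite strand, which had a value of 1487. E2f1, the activating E2F factor that is itself an E2F target, had a value of 1769 and a level of 20.3, among the 3 G1 genes of the top class with Ccnd1 and Cdk4. None of the E2F words searched was in its RefSeq window. That window, chromosome 2, 154569377 to 154569676, lay wholly inside the annotated GENCODE gene, whose minus-strand start is at 154569892. The sequence before that annotated start was therefore not searched.

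The wider RB pathway was read from a list of 18 genes of the RB, E2F and DREAM proteins, all of them detected. Of these, 7 had a level above the median of detected genes and 2 were in the top class, against 50.0% and 25.0% of detected genes. Those shares, and the 67.2% of all rows that were detected, are the ones to set beside the counts of each pathway list below. The median level of the 18 genes was 3.21. The highest were Tfdp1, the DP1 partner that E2F proteins need for DNA binding, at 20.2, then the repressive factors E2f4 at 19.7 and E2f5 at 9.42. With all exons the lowest was E2f7, an atypical repressor, at 0.825. The level of E2f1 was 14.2 to 16.3 times that of E2f2 and 5.73 to 6.23 times that of E2f3, both activating factors, whereas E2f1 and E2f4 could not be ordered, with ratios of 0.840 to 1.03.

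The inhibitors of cyclin-dependent kinases were also present. All 7 were detected, 5 had a level above the median of detected genes and 3 were in the top class. These were Cdkn2b, an INK4 inhibitor of CDK4 and CDK6, at a level of 28.6, Cdkn1a, the p53 target that inhibits several CDKs, at 27, and Cdkn2a, whose locus encodes INK4A and ARF, at 24.0. The lowest was Cdkn1c, a CIP/KIP inhibitor, at 2.06. The level of Cdkn1a was 9.55 to 17.8 times that of Cdkn1b, its relative in the CIP/KIP family. Thus genes that drive G1 (Ccnd1, Cdk4 and E2f1) and genes that hold it back (Cdkn2b, Cdkn1a and Cdkn2a) were both in the top class of this culture, and whether the same cells held both cannot be told from bulk RNA.

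**Figure D4:**
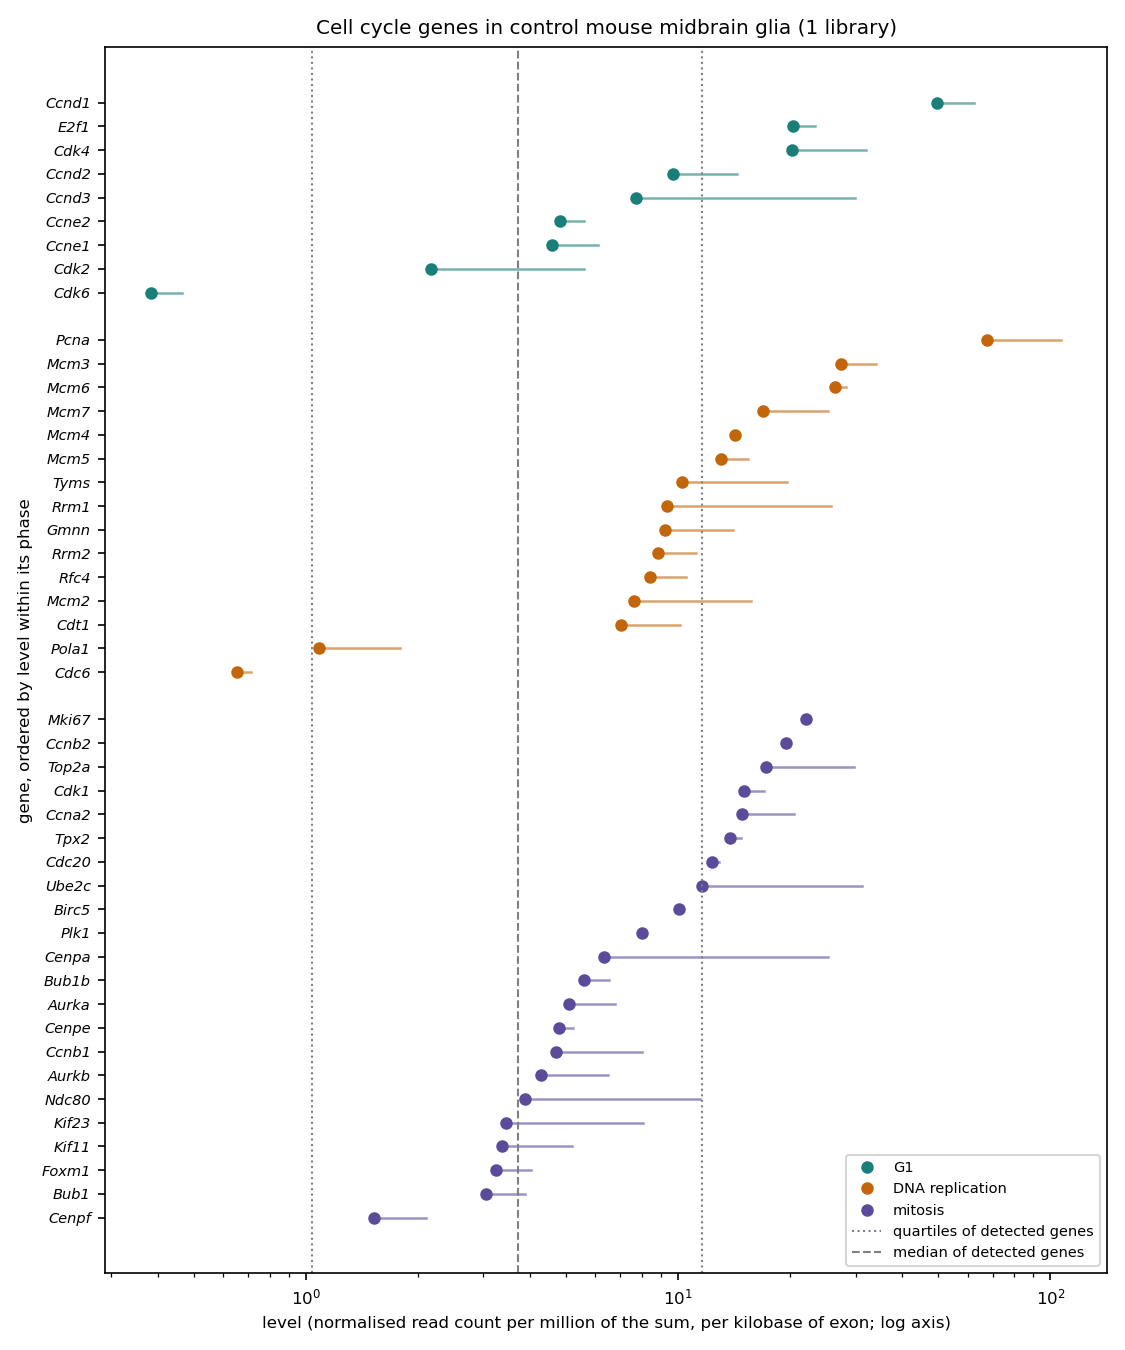
Level (per 1000000 of the sum, per kilobase of exon, log axis) of each of the 46 genes by phase; points use the union of annotated exons and lines span the 3 length choices. Pcna (67.8) and Ccnd1 (49.5) are highest, and Cdk6 (0.384) and Cdc6 (0.652) lowest.

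Among replication genes, Cdc6 and Pola1 stood far below the others, and the genes of the replicative helicase were at middle to high levels. The MCM2 to MCM7 proteins form a hexamer with equal numbers of each subunit, which unwinds DNA at the fork. Mcm2 had a value of 1460 and a level of 7.61, Mcm3 a value of 2839 and a level of 27.4, and Mcm4 a value of 1408 and a level of 14.2. Mcm5 had a value of 1433 and a level of 13.0, Mcm6 a value of 3399 and a level of 26.4, and Mcm7 a value of 2066 and a level of 16.9. The highest level, of Mcm3, was 3.61 times the lowest, of Mcm2. That span was 2.11 with the longest transcript and 2.39 with RefSeq-paired transcripts, and the level of Mcm2 itself was 7.61 to 15.7 over the length choices, so the low end of the span rested on the length taken for Mcm2.

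The factors that place the helicase on origins were Cdc6 and Cdt1, and geminin (Gmnn) binds Cdt1 and blocks a second loading in the same cycle. Cdc6 (chromosome 11, 98907801 to 98923940, plus strand) had a value of 94 and a level of 0.652, above 18.1% of detected genes. Cdt1 had a value of 609 and a level of 7.03, and Gmnn a value of 372 and a level of 9.21. The level of Cdt1 was 10.8 to 14.2 times that of Cdc6 and 0.684 to 0.764 times that of Gmnn. Both CDC6 and CDT1 are also controlled by destruction of the protein, which RNA does not measure.

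The other genes of origin licensing and firing were a list of 14, all detected, with a median level of 6.16, 8 above the median of detected genes and 1 in the top class. That gene was Gins4, a subunit of the GINS part of the active helicase, at 26.6. It was followed by the origin recognition subunits Orc6 at 11.3 and Orc3 at 9.92. Orc1, an ATPase subunit of the same complex, was lowest, with a value of 70 and a level of 0.730. The level of Orc6 was 15.5 times that of Orc1 with all exons, and Orc3 exceeded Orc6 under the other length choices. Orc1 and Cdc6 encode related ATPases, and the level of Orc1 was above 19.7% of detected genes.

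At the fork, Pcna (chromosome 2, 132249162 to 132253314, minus strand), the sliding clamp that holds polymerases on DNA, had a value of 4484 and a level of 67.8. This was the highest level of the 46 genes, above 95.1% of detected genes, and 104 to 151 times that of Cdc6. Rfc4, a subunit of the clamp loader, had a value of 356 and a level of 8.42. It shares 12.7% of its exon length with Eif4a2, which had a value of 3554. The 5 clamp loader subunits lay close together, from 5.79 for Rfc3 to 9.71 for Rfc1, with a highest to lowest ratio of 1.63 to 1.94 over the length choices. Their values, not divided by length, spanned 4.53 times. Rfc2 shares 15.1% of its exon length with Lat2 (value 2034) and Rfc5 10.7% with Wsb2 (value 3572).

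DNA polymerase alpha with primase, which starts each new strand, was in contrast uneven. Pola1 (chromosome X, 93304767 to 93632155, minus strand), the catalytic subunit, had a value of 264 and a level of 1.09. Pola2, the second subunit, had a value of 4011 and a level of 17.5. Primase subunits were between them, at 3.54 for Prim1 and 2.96 for Prim2. The ratio of Pola2 to Pola1 was 16.1 with all exons and 28.2 to 28.3 with the other length choices, although the proteins work as a complex with 1 copy of each. Pola1 has no exon overlap with another annotated gene, and neither does Pola2.

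**Figure D5:**
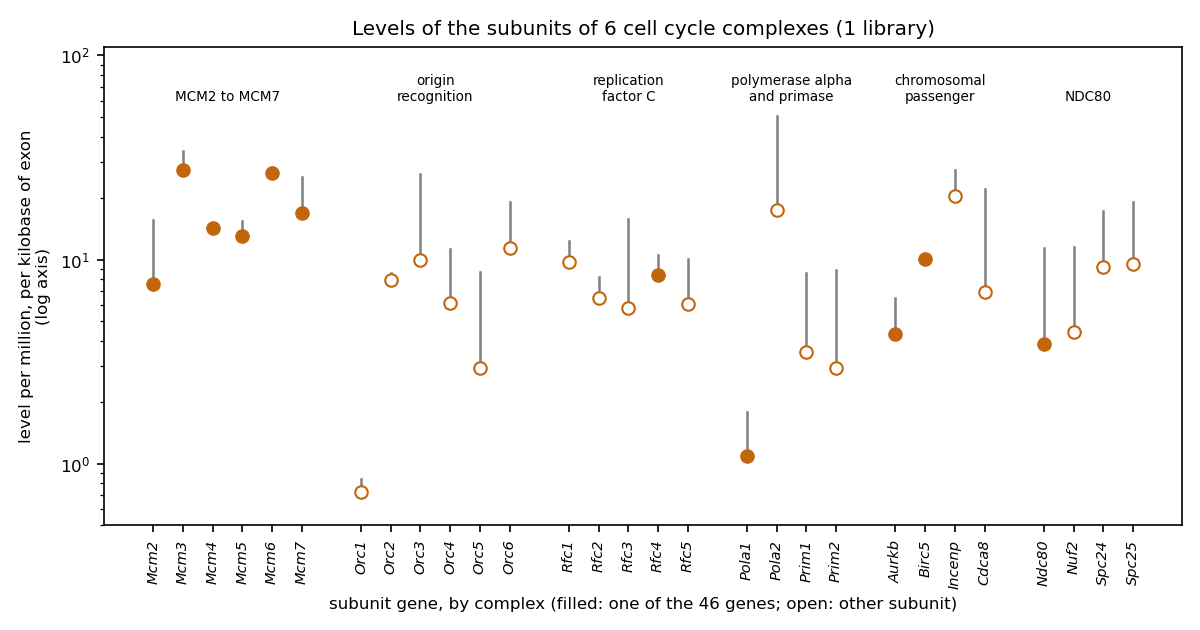
Level (per 1000000 of the sum, per kilobase of exon, log axis) of subunits of 6 complexes; filled points are among the 46 genes, open points are other subunits, and lines span the length choices. Replication factor C spans 1.68 times from lowest to highest, MCM2 to MCM7 3.61 times, and polymerase alpha with primase 16.1 times.

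The supply of deoxynucleotides was represented by 3 genes. Rrm1, the large subunit of ribonucleotide reductase, had a value of 2831 and a level of 9.32, and Rrm2, the small subunit made in S phase, a value of 674 and a level of 8.82. Their ratio was 1.06 with all exons and 2.30 with RefSeq-paired transcripts. Tyms, thymidylate synthase, had a value of 1715 and a level of 10.2. A list of 24 other fork and nucleotide genes had a median level of 6.01, with 18 above the median of detected genes and 7 in the top class. With all exons its highest members were Lig1, the ligase that joins Okazaki fragments, at 35.7, Dnmt1, the maintenance DNA methyltransferase, at 26.8, and Rpa1, a single-strand DNA binding subunit, at 18.1, whereas Pola2 came first under both other length choices, at 50.6 and 50.7. Pole2, a subunit of polymerase epsilon, was lowest at 1.75.

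The mitotic genes include the cyclins that start mitosis and their kinase. Cdk1 had a value of 2048 and a level of 15.1, Ccna2 (cyclin A2) a value of 1676 and a level of 14.9, Ccnb1 (cyclin B1) a value of 548 and a level of 4.71, and Ccnb2 (cyclin B2) a value of 824 and a level of 19.5. The level of Ccnb2 was 2.44 to 4.14 times that of Ccnb1. For Ccnb1, 4 annotated pseudogenes with 94.4% to 99.2% identity share much of the transcript, so reads that match several places could have been left out of its value. The level of Cdk1 was 3.03 to 6.94 times that of Cdk2. Ccna2 shares 12.5% of its exon length with Exosc9, which had a value of 2886.

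Foxm1, the forkhead factor that activates mitotic genes, had a value of 515 and a level of 3.25. Plk1, the polo-like kinase of mitotic entry, had a value of 484 and a level of 7.98. The list of 7 other genes of mitotic entry was the lowest of the pathway lists, with a median level of 1.65, 2 above the median of detected genes and 0 in the top class. Pkmyt1, an inhibitory kinase of CDK1, was highest at 7.07, followed by the phosphatase Cdc25b at 4.10 and the kinase Wee1, which opposes it, at 3.71. Cdc25c, another CDK1 phosphatase, was lowest at 0.494.

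The proliferation markers Mki67 and Top2a had the highest values, not divided by length, of the mitotic group. Mki67 (chromosome 7, 135689784 to 135716361, minus strand), which encodes the Ki-67 coat of mitotic chromosomes, had a value of 6120 and a level of 22.1. Top2a, the topoisomerase that untangles sister chromosomes, had a value of 4268 and a level of 17.2. Per length they could not be ordered, since the ratio of Top2a to Mki67 was 0.778 with all exons and 1.34 with the other length choices. Mki67 held the second highest undivided value of the 46 genes, whereas with all exons 4 other members exceeded its level.

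Of the kinetochore genes, Cenpa, the histone that marks centromeres, had a value of 1021 and a level of 6.32. Cenpe, a kinetochore motor, had a value of 1138 and a level of 4.79. Cenpf, a large kinetochore protein, had a value of 647 and a level of 1.52. The level of Cenpa was 4.16 to 12 times that of Cenpf, and that of Cenpe 2.47 to 3.15 times. Ndc80, which binds microtubules, had a value of 693 and a level of 3.87, and the other NDC80 subunits lay between 4.39 for Nuf2 and 9.56 for Spc25. From the lowest to the highest of its 4 subunits, Ndc80 included, the complex spanned 1.68 to 2.49 times over the length choices.

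The checkpoint genes Bub1 and Bub1b and the 2 Aurora kinases lay near the middle of detected genes, above 45.7% to 59.2% of them. Bub1 had a value of 367 and a level of 3.06, and Bub1b, which encodes BUBR1, a value of 659 and a level of 5.59, which was 1.67 to 1.83 times as high. Aurka, the Aurora kinase of the spindle poles, had a value of 355 and a level of 5.09, and Aurkb, the Aurora kinase of the chromosomal passenger complex, a value of 349 and a level of 4.30. Their levels were within a ratio of 0.845 to 0.978. Birc5, which encodes the passenger protein survivin, had a value of 945 and a level of 10.1, and the other passenger subunits were Incenp at 20.5 and Cdca8 at 6.96. The 4 passenger subunits spanned 3.96 to 4.77 times. A list of 16 other kinetochore and checkpoint genes had a median level of 4.90, with 9 above the median of detected genes and 3 in the top class. These were Zwint at 33.1, Incenp, and Mad1l1 at 13.7, and the protector of cohesion Sgo1 was lowest at 1.12.

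On the spindle, Tpx2, which activates Aurora A on microtubules, had a value of 1776 and a level of 13.8, or 2.18 to 2.71 times that of Aurka. Kif11, the motor that separates the spindle poles, had a value of 691 and a level of 3.36, and Kif23, the motor of the central spindle, a value of 753 and a level of 3.46. The list of 18 other spindle and cytokinesis genes had a median level of 4.54, with 11 above the median of detected genes and 1 in the top class. That gene was Tacc3, a spindle scaffold, at 20.5, followed by the motor Kif20a at 9.44 and Nusap1 at 7.25. Kif18a, a motor that limits microtubule length, was lowest at 0.546.

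Exit from mitosis depends on the anaphase-promoting complex (APC/C). Cdc20, its activator in mitosis, had a value of 637 and a level of 12.4. Ube2c, its ubiquitin-conjugating enzyme, had a value of 831 and a level of 11.6, and its level reached 31.2 with other lengths. Fzr1, the activator of the APC/C after mitosis and in G1, had a level of 9.93, and Cdc20 and Fzr1 could not be ordered, with ratios of 0.884 to 1.25. The 9 genes of chromosome structure and separation had a median level of 7.93, with 6 above the median of detected genes and 1 in the top class. The condensin subunit Smc4 was highest at 15.7, followed by Fzr1 and the condensin subunit Ncaph at 8.93, and Espl1, which encodes separase, was lowest at 1.19.

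In all, the 113 genes of the 8 pathway lists were detected without exception, against 67.2% of all rows. Of them, 66 had a level above the median of detected genes, against 50.0% of detected genes. The top class held 18 of them, against 25.0% of detected genes. The median level of the 113 genes was 4.63. Their promoters carried the words of the member promoters to different degrees. An E2F word was in 16 of 27 windows of the replication fork list (59.3%) and in 5 of 20 windows of the spindle list (25%), whereas a CHR word was in 4 of 27 (14.8%) and 16 of 20 (80.0%). The kinetochore list had an E2F word in 15.8% and a CHR word in 36.8% of its 19 windows, and origin licensing in 40% and 33.3% of its 15. The same shares were 44.4% and 38.9% for RB, E2F and DREAM, and 37.5% and 62.5% for chromosome structure and separation. They were 25% and 50% for mitotic entry, with 4 windows, and 22.2% and 11.1% for CDK inhibitors. Promoters of detected genes had 15.4% and 14.1%, so the E2F share of the kinetochore list was near theirs.

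The 46 genes lay on 17 chromosomes. Chromosome 2 held 7 of them, which were E2f1, Pcna, Bub1, Bub1b, Aurka, Tpx2 and Ube2c, and chromosome 7 held 5. Exons of 15 of the 46 overlapped those of another annotated gene, with 7 in G1, 2 in replication and 6 in mitosis. Ccnd1 shared 23.4% of its exon length with LTO1, which had no row under that symbol, and Ube2c 22.8% with Tnnc2, which had a value of 3. An annotated pseudogene with at least 90% identity over 300 bases or more existed for 9 members, which were Ccnb1, Cdc20, Cdc6, Gmnn, Kif11, Mcm4, Mcm7, Pcna and Plk1. The identity was 99.2% for Pcna and Pcna-ps2 and 95.2% for Cdc6 and Gm9430. Among other pathway genes named above, exons of E2f5, E2f7, Cdkn1a, Cdkn1c, Orc1, Orc6, Rfc2, Rfc5, Lig1, Rpa1 and Pole2 also overlapped another gene. So did those of Pkmyt1, Cdc25b, Cdc25c, Mad1l1, Cdca8, Tacc3, Kif20a, Nusap1, Kif18a and Fzr1, and all these levels carry the same doubt. None of the pseudogene copies had a row under its GENCODE symbol, and other names of the copies were not looked up. How reads that matched more than 1 place were handled is not stated, so the values of the 9 members with a copy are uncertain.

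The labelled cells were checked against markers. All 6 microglial, 6 astrocyte and 6 oligodendrocyte lineage markers were detected, with median levels of 85.6, 24.8 and 21.5, and all 6 mesenchymal markers as well, with a median level of 59.1. Of 6 neuronal markers 4 were detected with a median level of 0.292, and Slc17a6 was listed at 0. Of 6 endothelial markers 5 were detected with a median level of 0.425, and Tek was listed at 0. RNA of glial markers was therefore present. The mesenchymal median was below the microglial one and above the astrocyte and oligodendrocyte lineage ones. The part of each cell type in the culture, and in the levels of the cell cycle genes, was not tested.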

How the data were processed

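The deposited table gave 1 value per gene for 1 control library. According to the study's methods, the authors trimmed bases with a quality under 20, mapped reads to GRCm38/mm10 with STAR and counted them on RefSeq Release 105 exons with HTSeq-count, while the submitters' processing notes name TopHat and edgeR without a role. The values deposited by the authors were normalised read counts in whole numbers, treated as a score with no count model, since the normalisation, the strand setting and the treatment of multi-mapped reads are not given in the sources used here. Sequenced reads are unknown, so no interval or floor is given, and another normalisation by the authors could move every level.

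Rows were matched to GENCODE M21 (GRCm38) by symbol (22909 of 23282). Levels are values per 1000000 of the sum per kilobase of exon, with the union of exons, the longest transcript or RefSeq-paired transcripts as length. The quartiles of levels come from 15491 detected genes with a gene model. Copies were sought with BLAST 2.17.0 (at least 300 bases, 25% of the transcript and 90% identity). Motif searches, levels and figures used Python 3.11.15, numpy 2.4.6, pandas 2.3.3 and matplotlib 3.10.9, and the scripts were tested on simulated data. The 46 genes, the pathway and marker lists and the motifs were chosen with earlier results of these data known. Values are given for every member, and for each pathway list for the 3 highest members and the lowest, with subunits of member complexes in addition. The alternatives were other detection minima, lengths, averages, phase assignments and promoter windows, sums without the highest genes, and members without overlaps or copies.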

Additional observations from a re-analysis of the deposited data

How the results depend on the processing

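For 16 results, 58 alternatives were computed. Of these, 52 stayed within 1.5 times the value given (for promoter shares, within its 95% exact binomial interval). To be counted among the 52, ratios of phase medians also had to stay on the same side of 1. The 52 include detection counts at minima of 1 and 3. Those counts could not change, since every member had a value of 10 or more. The narrower promoter window lies within the main one, so promoter shares could not rise. Their intervals rest on few windows and are wide. The replication CHR share, 14.3%, became 7.14% and is still counted among the 52. The ratio of the G1 to the mitotic median level, 1.29, became 2.45 when values were not divided by length and 2.52 without members whose exons overlap another gene. The ratio of the G1 to the replication median, 0.825, turned to 1.23 and 1.34 under the same settings, the second of which leaves 2 G1 genes. With a detection minimum of 100, the mitotic median lay above 49.4% of detected genes instead of 60.7%. The span of the MCM levels, 3.61, became 2.11 with the longest transcript and 2.39 with RefSeq-paired transcripts. RefSeq-paired lengths and leaving out members with near-identical copies were alternatives chosen after seeing the data. For the shares of detected genes below the phase medians, so was the length of the longest transcript. No paired analysis was possible because there is 1 library. The unknown normalisation and the absence of a replicate limit every order of levels given here.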
